A study of Homo sapiens with 6 samples.

Results

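The genes described here are 55 genes of mitosis and of the passage from G2 into mitosis, taken by name as textbook members of that program, out of 63140 genes listed and 14451 tested. RNA-seq of polyA RNA was carried out on BT-549 cells, an established human triple negative breast cancer line with wild type genotype. Adipocyte-conditioned medium (ACM) was a low-serum medium with oleate, albumin and insulin, collected from OP9 mouse cells differentiating into adipocytes, and 3 ACM libraries were compared with 3 of unconditioned medium (UCM) after 24 h. The sample labels give the ACM as 50%, whereas the study's methods give it as undiluted for RNA-seq. The formula of UCM is not given in the sources used here, and the line is kept in RPMI-1640 with serum and insulin, so differences in base medium, serum or oleate cannot be told apart from adipocyte factors. Nothing in the sources used here says that the replicates of a group were grown from separate starting cultures, so p-values measure only the spread between these samples, which may be technical.

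Cells enter mitosis when cyclin B with its partner kinase CDK1 is activated by CDC25 phosphatases, and Polo-like and Aurora kinases then drive centrosome separation, spindle assembly and chromosome alignment. The spindle checkpoint holds the cell until every kinetochore is attached, after which CDC20 activates the anaphase-promoting complex (APC/C), cyclin B and securin are destroyed, and sister chromatids part. Transcripts of these proteins build up together late in the cell cycle, under FOXM1 and MYBL2 bound with the MuvB proteins, and are held down in resting cells by the DREAM complex. Because most of these transcripts are made mainly in dividing cells, they are widely used as proliferation markers in tumors, MKI67 foremost among them.

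Library totals ranged from 17135270 rounded expected counts in UCM 3 to 21053214 in ACM 1. All 55 genes passed the filter on low counts, and their counts ran from 179 to 16125 in a single library. Levels are given as CPM, counts scaled by library size and TMM factors. VIM, FN1 and CDH2, markers of a mesenchymal line, averaged 2930, 1018 and 186 CPM in UCM, while EPCAM, KRT5, ESR1 and PGR stood below 0.1 CPM in every library. KRT8 and KRT18 stayed below 1 CPM, CDH1 averaged 1.27 CPM and ERBB2 68.2 CPM in UCM. Of 7 adipocyte markers, ADIPOQ, LEP and CIDEC had no count in any library and PLIN1, FABP4 and LPL stayed below 0.1 CPM. The 7 markers summed to 2.52, 2.08 and 3.10 CPM in ACM 1, 2 and 3 and to 1.52, 1.40 and 1.92 CPM in UCM 1, 2 and 3, nearly all of it CFD. CFD itself was 0.67 higher in ACM on the log2 scale without passing the test (edgeR adjusted p = 0.197).

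Of the 55 genes, 10 fell in ACM and 0 rose at an adjusted p of at most 0.05 by edgeR's quasi-likelihood test with Benjamini-Hochberg adjustment over all genes tested. Called lower were 18.2% of the members, against 2.21% of all genes tested (320 of 14451) and 3.05% of the 9193 genes within the members' range of abundance. Called higher were 3.35% of all genes tested. The 10 genes were CDCA8, CDC20, AURKA, CCNB1, DLGAP5, KIF23, ANLN, NCAPG, TPX2 and HMMR, with levels in ACM from 30.5% (CDCA8) to 18.2% (HMMR) below UCM. The median log2 fold change (ACM over UCM) of the 55 genes was -0.22, which corresponds to a level 13.9% lower, against -0.01 over all genes tested. In bulk RNA, a smaller share of cells in G2 and mitosis and less of these transcripts per such cell cannot be told apart.

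The difference was spread over most of the genes. Fitted values were below 0 for 51 of the 55 (92.7%, against 51.9% of all genes tested), and the 4 above 0 were CDC25B, CENPA, FOXM1 and ESPL1, all with intervals that span 0. At an unadjusted p of at most 0.05, 37 genes were lower and 0 higher by edgeR, against 11.5% of all genes tested lower. DESeq2 called 16 lower (29.1%, against 3.08% of all genes it tested). Limma-trend on log2(TPM + 1) called 2, CDCA8 and KIF23 (3.64%, against 0.837% of all genes tested), so that 8 of the 10 calls were lost while calls over all genes went from 320 to 121. Limma-trend on log2(CPM + 1), added after the data were seen, called 11, against 2.42% of all genes tested, and all of these called 0 higher. All 3 ACM values lay below all 3 UCM values for 36 genes (65.5%), against 15.1% of all genes tested, and no gene had the opposite arrangement. None of the 55 reached the 0.58 on the log2 scale that the study set as its threshold, which 5.83% of all genes tested passed in either direction together with an unadjusted p of at most 0.05.

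**Figure D1:**
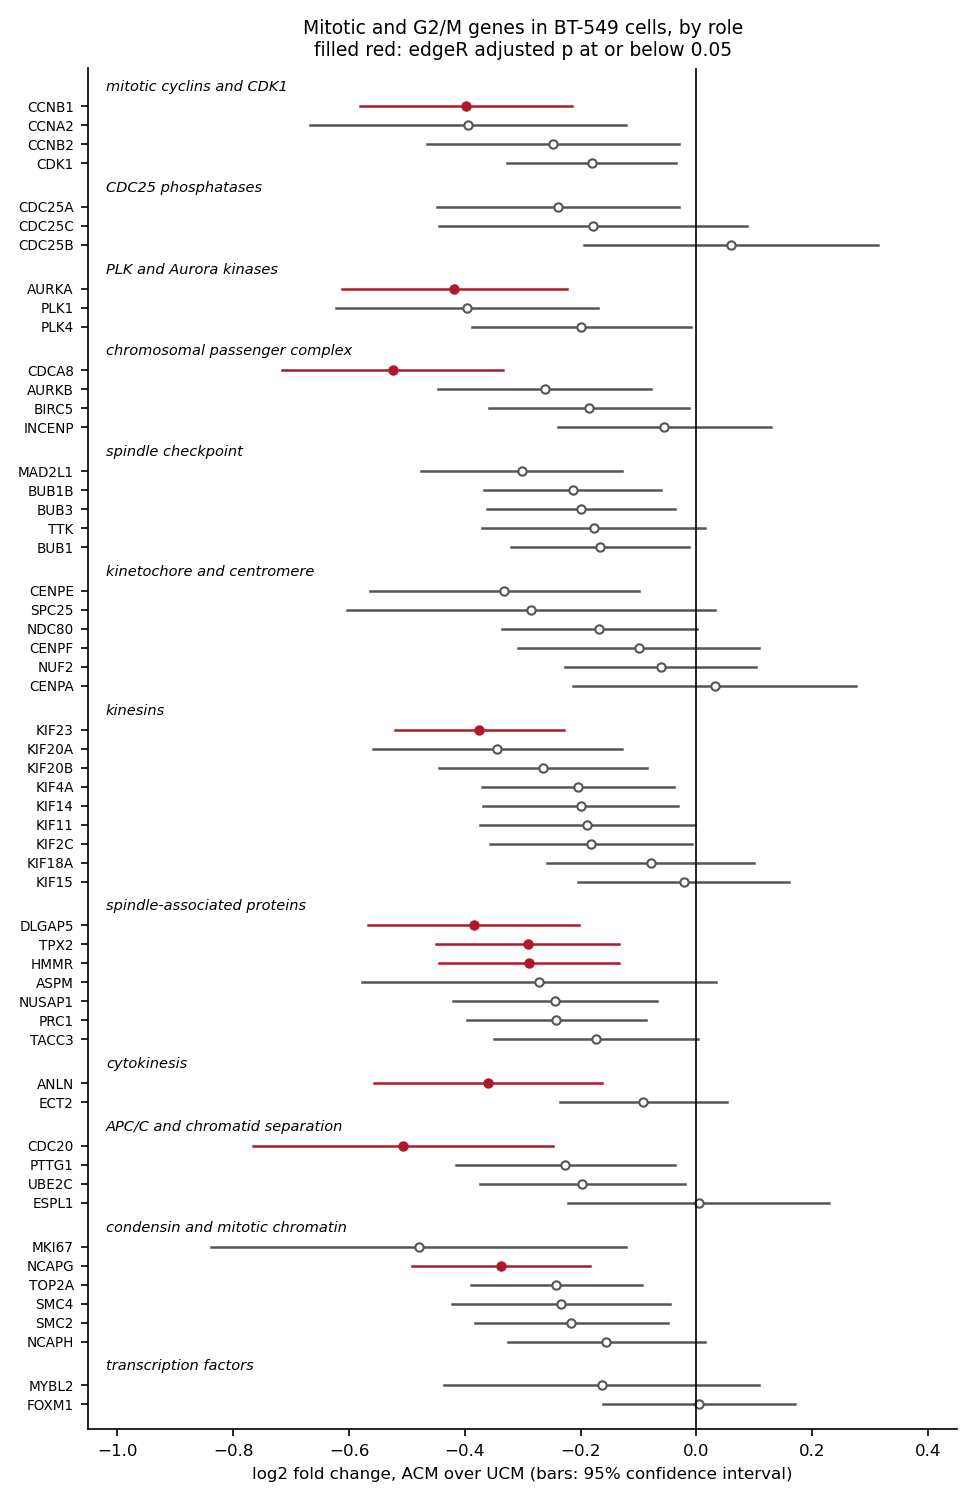
Log2 fold change of each of the 55 genes (x axis, ACM over UCM) with its 95% confidence interval, grouped by role; filled red marks the 10 genes with an edgeR adjusted p of at most 0.05. Every red interval lies left of 0, and 51 of 55 points lie left of 0.

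The number of calls depended on single libraries. With UCM 3 left out, edgeR called 0 of the 55 genes lower, with 22 lower at an unadjusted p of at most 0.05, and with UCM 2 left out it called 1. It called 2 without ACM 2, 5 without ACM 1 and 7 without ACM 3, but 19 without UCM 1. Calls over all genes, 320 lower in the full data, were 62 without UCM 3, 70 without UCM 2, 87 without ACM 2, 206 without ACM 1, 190 without ACM 3 and 572 without UCM 1. The median of the 55 genes moved less, between -0.19 and -0.26 over the 6 sets of 5 libraries. CDCA8 passed in 5 of these 6 sets and KIF23 in 4, whereas CCNB1 and AURKA passed in 3, NCAPG and TPX2 in 2, and CDC20, DLGAP5, HMMR and ANLN in 1.

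Among the mitotic cyclins and their kinase, CCNB1 was the gene that passed. Cyclin B1 is the main partner of CDK1 at entry into mitosis, and its gene (ENSG00000134057.15) lies at chr5:69167135-69178245 on the plus strand in GENCODE 44 on GRCh38. CCNB1 stood at 289, 247 and 284 CPM in ACM 1, 2 and 3 and at 332, 383 and 366 CPM in UCM 1, 2 and 3. The groups did not overlap, and ACM 2 was the lowest library. Its log2 fold change was -0.40 (SE 0.08, edgeR adjusted p = 0.0236), a level 24.1% lower; the same test gave 0.0862 without ACM 2, 0.122 without UCM 2 and 0.114 without UCM 3, and limma-trend on log2(TPM + 1) gave 0.0531. CCNA2, the cyclin of S phase and G2, had a difference of the same size, -0.39 (SE 0.12) but did not pass by edgeR (adjusted p = 0.0946), while DESeq2 called it. ACM 3 at 115.5 CPM lay above UCM 1 at 113.9 CPM. CCNB2 had a value of -0.25 (SE 0.10). CDK1, whose protein is regulated mainly by its cyclins and by phosphorylation, stood at 99.9, 106.1 and 102.3 CPM in ACM and at 111.6, 117.5 and 120.5 CPM in UCM. These groups did not overlap either, yet the difference was -0.18 (SE 0.07) and did not pass (edgeR adjusted p = 0.133).

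None of the 3 CDC25 phosphatases, which strip the inhibitory phosphates from CDK1, passed in either direction by edgeR, DESeq2 or limma-trend. At an unadjusted p of at most 0.05 by edgeR, 1 of them was lower, against 11.5% of all genes tested. That gene was CDC25A, at 28.7, 34.2 and 35.1 CPM in ACM and 38.9, 38.6 and 38.2 CPM in UCM. The UCM libraries agreed closely and all lay above the ACM libraries, for a difference of -0.24 (95% interval -0.45 to -0.03, edgeR adjusted p = 0.161). Without ACM 1, the lowest library, the CDC25A difference was -0.14 by edgeR, and without both libraries numbered 1 it was -0.13. CDC25B had the highest fitted value of the 55 genes. It stood at 358, 466 and 409 CPM in ACM and at 342, 418 and 424 CPM in UCM, with overlapping groups and a difference of 0.06 (95% interval -0.19 to 0.31, edgeR adjusted p = 0.806). CDC25C, the phosphatase first tied to mitotic entry, had a value of -0.18 (95% interval -0.44 to 0.09).

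All 3 Polo-like and Aurora A kinase genes had ACM values wholly below UCM values, as had 15.1% of all genes tested. AURKA, which matures centrosomes and activates PLK1 (ENSG00000087586.18, chr20:56369389-56392337, minus strand), stood at 189, 162 and 194 CPM in ACM and at 221, 257 and 251 CPM in UCM. AURKA fell by 0.42 on the log2 scale (SE 0.09, edgeR adjusted p = 0.0243), and ACM 2 was again the lowest library. The AURKA call was lost without ACM 2 (edgeR adjusted p = 0.0869), UCM 2 (0.120) or UCM 3 (0.117), and by limma-trend on log2(TPM + 1) (adjusted p = 0.0671). PLK1, a kinase needed from mitotic entry to cytokinesis, stood at 258, 199.5 and 222 CPM in ACM and at 269, 317 and 309 CPM in UCM. The gap between ACM 1 and UCM 1 was narrow, and the difference of -0.40 (SE 0.10) just missed the threshold (edgeR adjusted p = 0.0526); in the same edgeR test it passed without UCM 1 (adjusted p = 0.0191) and without ACM 1 (0.0231), but not without ACM 2 (0.173), ACM 3 (0.121), UCM 2 (0.192) or UCM 3 (0.197). DESeq2 called PLK1 (adjusted p = 0.00616), as did limma-trend on log2(CPM + 1) (0.0485), but not limma-trend on log2(TPM + 1) (0.102). PLK4, the kinase that starts centriole duplication, had a value of -0.20 (SE 0.09). Its effective length varied most of the 55 genes, from 1489 to 2579 bases between libraries. Effective length is the mean over a gene's transcripts, weighted by their abundance, of their lengths corrected for fragment length.

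CDCA8 had the lowest fold change and the smallest adjusted p of the 55 genes. It encodes borealin, a subunit of the chromosomal passenger complex that brings Aurora B to centromeres (ENSG00000134690.11, chr1:37692481-37709719, plus strand). CDCA8 stood at 93.2, 74.5 and 83.3 CPM in ACM, a mean of 83.7 ± 9.32 CPM (SD, n = 3), and at 116, 119.8 and 125 CPM in UCM, a mean of 120.4 ± 4.62 CPM (SD, n = 3). Every ACM library was below every UCM library by more than the spread within either group. CDCA8 fell by 0.52 (SE 0.09, 95% interval -0.72 to -0.33, edgeR adjusted p = 0.0089); without UCM 3 its edgeR adjusted p was 0.0513. The other subunits ranged from AURKB to INCENP. AURKB, the kinase of the complex, stood at 88.1, 78.2 and 87.2 CPM in ACM and 91.9, 104 and 109 CPM in UCM, a difference of -0.26 (SE 0.08, edgeR adjusted p = 0.0944) that passed when UCM 1 was left out (edgeR adjusted p = 0.0265). BIRC5, which encodes survivin, had a value of -0.19 (SE 0.08), and INCENP, the scaffold of the complex, -0.06 (SE 0.08) with overlapping groups.

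The 5 spindle checkpoint genes all had values below 0, against 51.9% of all genes tested. None passed by edgeR, with 4 lower at an unadjusted p of at most 0.05 (against 11.5% of all genes tested), whereas DESeq2 called MAD2L1. MAD2L1 encodes MAD2, which inhibits CDC20 at unattached kinetochores, and was the member not called with the smallest edgeR adjusted p, 0.0511, at a difference of -0.30 (SE 0.08). BUB1, a kinase that recruits checkpoint proteins to kinetochores, stood at 92.7, 89.3 and 100.7 CPM in ACM and at 104, 106 and 107.5 CPM in UCM. Its groups did not overlap, and its difference was -0.17 (SE 0.07, edgeR adjusted p = 0.181). BUB1B, BUB3 and the checkpoint kinase TTK had values of -0.21, -0.20 and -0.18.

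The 6 kinetochore and centromere genes had a median of -0.13, nearer to 0 than any other role except the transcription factors. None passed by edgeR, DESeq2 or limma-trend. At an unadjusted p of at most 0.05 by edgeR, 1 of the 6 was lower, against 11.5% of all genes tested. That gene was CENPE, a kinesin that carries chromosomes to the spindle equator, at -0.33 (SE 0.10, edgeR adjusted p = 0.0931). CENPF, a large kinetochore protein that accumulates in G2, stood at 175.5, 155 and 163 CPM in ACM and at 202, 160.1 and 167 CPM in UCM. Only UCM 1 stood apart, the other 5 libraries overlapped, and the difference was -0.10 (95% interval -0.31 to 0.11). CENPA, the histone variant that marks centromeres, stood at 22.6, 22.4 and 24.7 CPM in ACM and at 19.7, 23.8 and 24.7 CPM in UCM, with a difference of 0.03 (95% interval -0.21 to 0.28). The annotated exons of CENPA overlap those of SLC35F6 on the same strand, so the division of reads between them rests on the authors' estimate. NDC80, NUF2 and SPC25, subunits of the complex that grips microtubules, had values of -0.17, -0.06 and -0.29.

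KIF23 was the kinesin that passed. It encodes a motor of the centralspindlin complex, which bundles microtubules between the separating chromosomes (ENSG00000137807.16, chr15:69414246-69448427, plus strand). KIF23 stood at 126, 118 and 130.1 CPM in ACM and at 157, 163 and 165 CPM in UCM, and the gap between groups exceeded the range within either. It fell by 0.37 (SE 0.07, edgeR adjusted p = 0.0121), although the call was lost without UCM 2 (0.0685) or UCM 3 (0.0793) by the same edgeR test. KIF20A, which brings Aurora B to the midzone, followed at -0.34 (SE 0.10, edgeR adjusted p = 0.0684) and was called by DESeq2, and KIF20B, KIF4A, KIF14 and KIF2C lay between -0.26 and -0.18 with groups that did not overlap. KIF18A had a value of -0.08. KIF11, the motor that pushes spindle poles apart, stood at 118, 118 and 138 CPM in ACM and at 131, 146 and 149 CPM in UCM. ACM 3 lay within the UCM range, and the difference was -0.19 (SE 0.08, edgeR adjusted p = 0.206). KIF15, which can share that task, stood at 39.6, 41.3 and 44.7 CPM in ACM and 40.9, 42.3 and 44.4 CPM in UCM, a difference of -0.02 (95% interval -0.20 to 0.16). The groups overlapped, its effective length varied from 3690 to 4484 bases between libraries, and on log2(TPM + 1) its difference by limma-trend was -0.18 (adjusted p = 0.442).

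Of the 7 spindle-associated proteins, 3 fell by edgeR (42.9%, against 2.21% of all genes tested). Limma-trend on log2(TPM + 1) called 0 of the 7, against 0.837% of all genes tested. DLGAP5, which stabilizes microtubules near chromosomes (ENSG00000126787.13, chr14:55148112-55191608, minus strand), stood at 65.7, 63.5 and 67.3 CPM in ACM and at 76.4, 89.1 and 91.2 CPM in UCM. The ACM libraries agreed closely and all lay below UCM 1, the lowest of the UCM libraries. DLGAP5 fell by 0.38 (SE 0.08, edgeR adjusted p = 0.0264). It passed only when UCM 1 was the library left out, with edgeR adjusted p of 0.0574, 0.108 and 0.0540 without ACM 1, 2 and 3, 0.130 without UCM 2 and 0.140 without UCM 3. Limma-trend on log2(TPM + 1) gave DLGAP5 an adjusted p of 0.084. TPX2, the activator of Aurora A on spindle microtubules (ENSG00000088325.16, chr20:31739271-31801805, plus strand), stood at 434, 410.0 and 466.5 CPM in ACM and at 513, 552 and 539 CPM in UCM. It fell by 0.29 (SE 0.07, edgeR adjusted p = 0.0421), a call lost without ACM 1 (0.0899), ACM 2 (0.150), UCM 2 (0.190) or UCM 3 (0.189), and by limma-trend on log2(TPM + 1) (0.0698). HMMR, a hyaluronan receptor that also binds spindle microtubules (ENSG00000072571.20, chr5:163460203-163491941, plus strand), stood at 109.8, 111 and 117 CPM in ACM and at 128, 143.5 and 142 CPM in UCM. HMMR likewise fell by 0.29 (SE 0.07, edgeR adjusted p = 0.0412), and the same test gave 0.0928, 0.137 and 0.0648 without ACM 1, 2 and 3, 0.190 without UCM 2 and 0.196 without UCM 3. Its effective length differed between libraries, from 1920 to 2344 bases, and on the TPM scale, which divides by that length, its difference by limma-trend on log2(TPM + 1) was -0.19 (adjusted p = 0.387). PRC1, NUSAP1, TACC3 and ASPM had values between -0.27 (ASPM) and -0.17 (TACC3) and did not pass.

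ANLN, the actin scaffold of the cleavage furrow (ENSG00000011426.11, chr7:36389821-36453791, plus strand), had the highest CPM of the 55 genes, at 602, 523 and 673 CPM in ACM and 764, 765 and 779 CPM in UCM. The UCM libraries lay within a narrow range, whereas the ACM libraries spread widely below it. ANLN fell by 0.36 (SE 0.09, edgeR adjusted p = 0.0438), and passed without ACM 3 but not without ACM 1 (0.0991), ACM 2 (0.132), UCM 1 (0.0513), UCM 2 (0.152) or UCM 3 (0.177). The ANLN call was also lost with both libraries numbered 1 left out (edgeR adjusted p = 0.117) and by limma-trend on log2(TPM + 1) (0.0707). ECT2, the exchange factor that activates RhoA at the furrow, had a value of -0.09 (SE 0.07) and did not pass, although its groups did not overlap.

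Only CDCA8 had a lower fold change than CDC20. The CDC20 protein both activates the APC/C and is the target of the checkpoint (ENSG00000117399.14, chr1:43358981-43363203, plus strand). CDC20 stood at 179, 139.6 and 179 CPM in ACM, a mean of 166 ± 22.9 CPM (SD, n = 3), and at 208, 259 and 241 CPM in UCM, a mean of 236 ± 25.7 CPM (SD, n = 3). The groups did not overlap, with ACM 2 far below the rest. CDC20 fell by 0.51 (SE 0.11, edgeR adjusted p = 0.0387). The value without ACM 2 was -0.40 (edgeR adjusted p = 0.0851), and the call was also lost without ACM 1 (0.0594), ACM 3 (0.0565), UCM 2 (0.146) or UCM 3 (0.150), and by limma-trend on log2(TPM + 1) (0.0576). UBE2C, the ubiquitin-conjugating enzyme of the APC/C, and PTTG1, which encodes securin, had values of -0.20 and -0.23 (SE 0.08 and 0.09). ESPL1, the protease separase that cuts cohesin, stood at 85.0, 67.1 and 73.7 CPM in ACM and at 83.2, 72.7 and 69.5 CPM in UCM. Its groups overlapped fully and its difference was 0.0038 (95% interval -0.22 to 0.23).

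Of the condensin and mitotic chromatin genes, NCAPG fell. It encodes a subunit of condensin I, which compacts chromosomes (ENSG00000109805.10, chr4:17810979-17844865, plus strand). NCAPG stood at 104, 97.8 and 110.0 CPM in ACM and at 127, 132 and 135 CPM in UCM, 2 tight groups that did not overlap. It fell by 0.34 (SE 0.07, edgeR adjusted p = 0.0227), a call lost without ACM 1 (0.0544), ACM 2 (0.0888), UCM 2 (0.107) or UCM 3 (0.135), and by limma-trend on log2(TPM + 1) (0.115). The other 5 genes had ACM values wholly below UCM values too, against 15.1% of all genes tested, and did not pass. TOP2A, the topoisomerase that untangles sister chromatids, stood at 288, 277 and 310.4 CPM in ACM and at 341, 342 and 352.5 CPM in UCM, a difference of -0.24 (SE 0.07, edgeR adjusted p = 0.0626) that DESeq2 called (adjusted p = 0.0413). MKI67, which keeps mitotic chromosomes dispersed, stood at 214, 157 and 183 CPM in ACM and at 310.5, 225 and 236 CPM in UCM. The library numbered 1 was the highest of its group in both media. MKI67 had the largest standard error of the 55 genes, 0.15, at a difference of -0.48 (95% interval -0.84 to -0.12, edgeR adjusted p = 0.118). Leaving out 1 library moved its edgeR value to between -0.59 (without ACM 1) and -0.31 (without UCM 1). DESeq2 called MKI67 lower, but limma-trend did not, on log2(TPM + 1) (adjusted p = 0.189) or log2(CPM + 1) (0.073). SMC2, SMC4 and NCAPH had values of -0.22, -0.23 and -0.16.

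Neither transcription factor of the program passed. FOXM1 stood at 234, 236 and 259.5 CPM in ACM and at 223, 251 and 254 CPM in UCM, with means of 243.1 (SD 14.24, n = 3) and 242.4 CPM (SD 17.03, n = 3). The libraries of both media were interleaved, and the difference was 0.0046 (95% interval -0.16 to 0.17, edgeR adjusted p = 0.979). MYBL2 stood at 381, 424 and 484 CPM in ACM and at 403, 523 and 519 CPM in UCM, again with overlap, at -0.16 (95% interval -0.44 to 0.11, edgeR adjusted p = 0.461). Leaving out 1 library moved the MYBL2 value to between -0.27 (without UCM 1) and -0.07 (without ACM 1). The 2 genes were not called by DESeq2 or limma-trend either, nor lower at an unadjusted p of at most 0.05. The intervals bound these differences but do not show that the levels were equal.

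**Figure D2:**
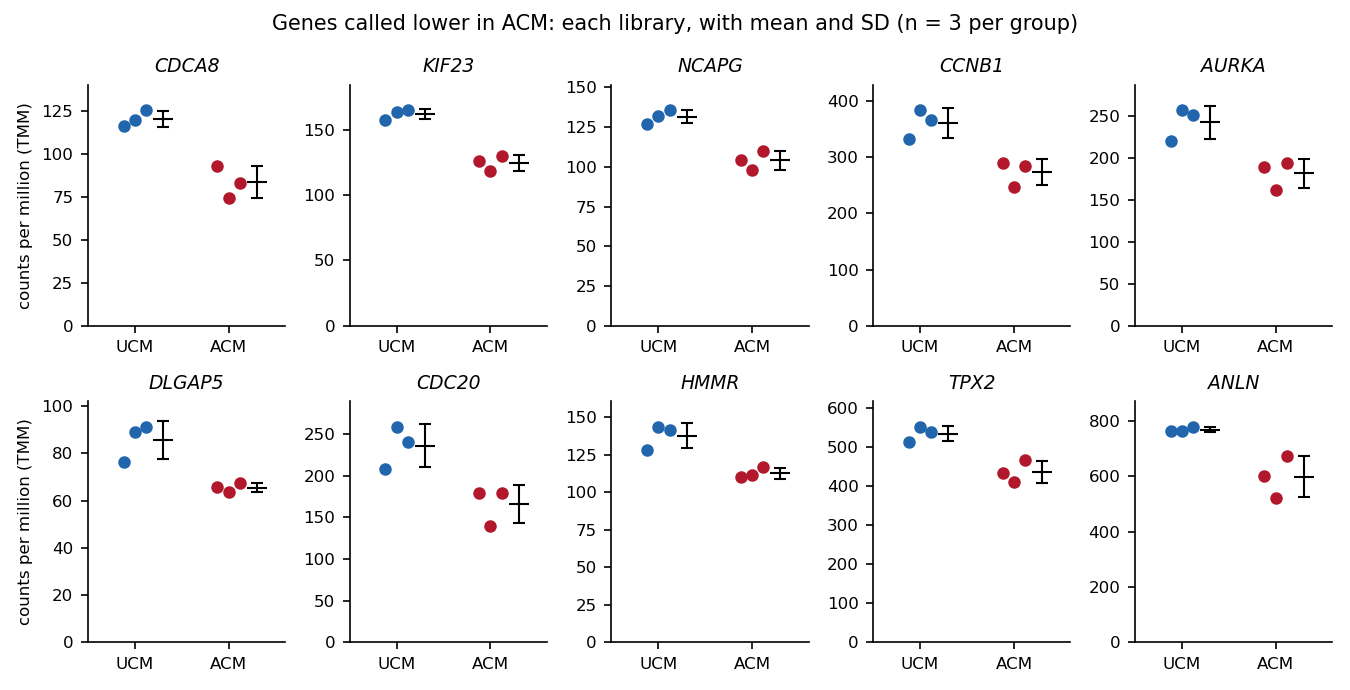
CPM (y axis, from 0) of the 10 genes that fell, in each UCM library (blue) and ACM library (red), with the mean and SD of each group in black (n = 3). In all 10 panels the 3 red points lie below the 3 blue points, and ACM 2 is the lowest point in every panel except HMMR.

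Genes of this program are known to share promoter elements, the CHR bound by MuvB complexes and the CCAAT box bound by NF-Y. RefSeq promoters on GRCh38.p14, from 250 bases before to 50 bases after the start site, were on hand for 48 of the 55 genes in 62 windows. Both strands were searched for the CHR as TTTGAA or TTCGAA and for the CCAAT box as CCAAT, and matches of different motifs may share bases. The 6 genes with the smallest adjusted p that hold either motif are shown from 120 bases before to 30 bases after the start site, 150 bases each, on the strand of the gene, with matches on either strand in capitals.
CDCA8 (chr1:37692396-37692545, plus strand): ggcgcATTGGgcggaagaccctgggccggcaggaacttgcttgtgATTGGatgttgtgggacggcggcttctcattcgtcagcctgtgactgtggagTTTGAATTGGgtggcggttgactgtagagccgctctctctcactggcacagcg
KIF23 (chr15:69414229-69414378, plus strand): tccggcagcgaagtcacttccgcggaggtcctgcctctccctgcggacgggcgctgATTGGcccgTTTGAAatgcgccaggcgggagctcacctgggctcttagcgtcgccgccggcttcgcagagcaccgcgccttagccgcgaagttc
NCAPG (chr4:17810859-17811008, plus strand): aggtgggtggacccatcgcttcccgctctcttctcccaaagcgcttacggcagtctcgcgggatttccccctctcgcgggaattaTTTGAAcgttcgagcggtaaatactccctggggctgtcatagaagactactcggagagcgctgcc
CCNB1 (chr5:69167030-69167179, plus strand): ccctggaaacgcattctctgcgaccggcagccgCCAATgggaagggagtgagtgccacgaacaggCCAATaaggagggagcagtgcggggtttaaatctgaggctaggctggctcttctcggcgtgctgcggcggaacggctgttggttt
DLGAP5 (chr14:55191556-55191705, minus strand): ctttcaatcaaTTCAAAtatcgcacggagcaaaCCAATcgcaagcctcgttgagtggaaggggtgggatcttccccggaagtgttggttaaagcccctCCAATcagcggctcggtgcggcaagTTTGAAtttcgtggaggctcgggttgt
CDC20 (chr1:43358861-43359010, plus strand): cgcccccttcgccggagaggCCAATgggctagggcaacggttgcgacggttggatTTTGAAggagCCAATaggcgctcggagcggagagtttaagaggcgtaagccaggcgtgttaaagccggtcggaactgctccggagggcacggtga

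In the windows shown, CDCA8 holds 1 CHR and 3 CCAAT boxes, DLGAP5 2 of each, CDC20 1 CHR and 2 CCAAT boxes, KIF23 1 of each, NCAPG 1 CHR, and CCNB1 2 CCAAT boxes. Over all 62 windows of the 55 genes, 40 (64.5%) hold a CHR, against 16.4% of all 35116 promoter windows in the table. A CCAAT box stands in 41 of them (66.1%), against 34.6% of all windows, and both motifs in 30 (48.4%), against 6.38%. The CHR matches gather near the start site: 33 of 54 (61.1%) have their centre between 60 bases before and 20 bases after it, against 23.6% of the matches in promoters of genes tested. Of the CCAAT matches, 54 of 82 (65.9%) lie between 120 and 40 bases before the start site, against 45.8%. Overlapping windows of the 9 genes with more than 1 start site can count a match more than once.

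Whether the motifs differ between the genes that fell and the other members was not tested, and the counts are small. A CHR stands in a window of 7 of the 8 genes that fell and have a promoter entry, (87.5%) and in 30 of the 40 others. A CCAAT box stands in 6 of the 8 and likewise in 30 of the 40. Among genes outside the 55, edgeR called 3.37% lower and 2.76% higher of the 652 with both motifs in the same window, and 1.56% lower and 3.60% higher of the 5333 with neither. With a CCAAT box and no CHR, 3.26% of 3708 genes were called lower and 3.67% higher, and with a CHR and no CCAAT box 1.77% and 2.99% of 736; these shares were not compared by a test. Median log2 fold changes were -0.06 with both, -0.02 with the CCAAT box alone, -0.01 with the CHR alone and -0.0029 with neither. A match is a stretch of letters and not evidence that a factor was bound in these cells.

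**Figure D3:**
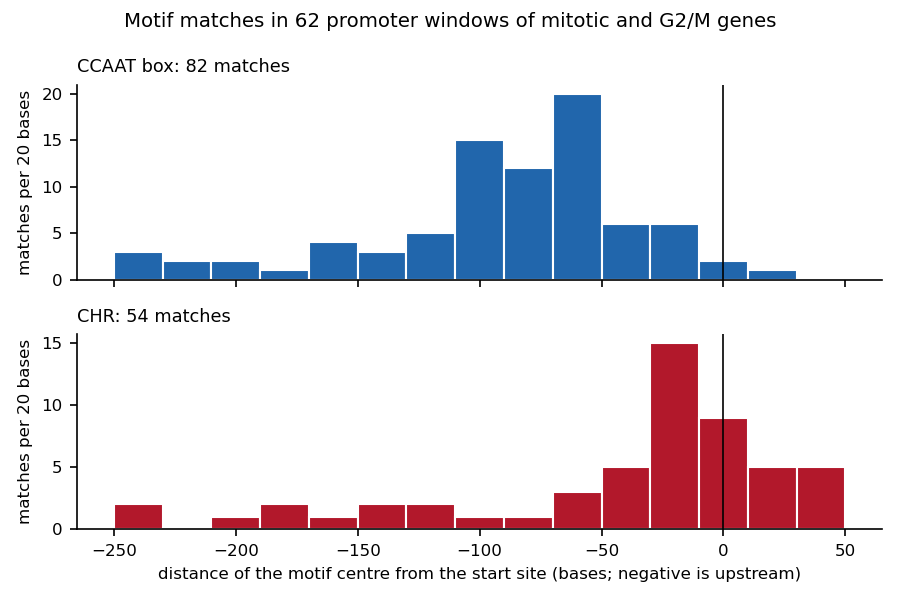
Number of motif matches per 20 bases (y axis) by distance of the motif centre from the start site in bases (x axis, negative is upstream) in the 62 promoter windows, CCAAT box above and CHR below. CCAAT matches peak upstream, with a median of -83.5 bases, and CHR matches peak close to the start site, with a median of -24.5 bases.

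Levels between genes were compared in TPM, a unit that takes length into account. In UCM, UBE2C was the most abundant of the 55 at 469.5 ± 40.3 TPM (SD, n = 3), followed by CCNB1 at 418 ± 26.7 TPM, and these neighbours overlap within their SD. MYBL2 (288 ± 37.3 TPM), ANLN (274 ± 3.68 TPM), PTTG1 (254 ± 21.4 TPM), CDC20 (252.5 ± 22.5 TPM) and AURKA (250.5 ± 11.4 TPM) came next. Neighbours among these 5 genes overlap within their SD. The least abundant were CENPE at 12.3 ± 0.369 TPM, KIF14 at 13.8 ± 1.07 TPM and KIF15 at 15.1 ± 1.00 TPM. MKI67, although among the higher genes in CPM, stood at 32.1 ± 6.45 TPM, and its effective length is the longest of the 55. The summed TPM of the 55 genes was 4774 ± 323 in ACM and 5743 ± 267 in UCM (SD, n = 3), with each ACM library (4858, 4418 and 5047) below each UCM library (5435, 5888 and 5907).

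Within each medium, the libraries held different levels of the whole set. ACM 2 had the lowest value of its group for 40 of the 55 genes, and ACM 3 the highest for 34. UCM 1 had the lowest value of its group for 40. As log2 ratios to each gene's UCM mean, the medians of the 55 genes were -0.21, -0.29 and -0.17 in ACM 1, 2 and 3 and -0.06, 0.04 and 0.04 in UCM 1, 2 and 3. The medians of all genes tested stayed between -0.02 and 0.01 in the same libraries. Of the 55 genes, 52, 54 and 50 lay below their UCM mean in ACM 1, 2 and 3, as did 42 in UCM 1. Matching counts over all genes tested were not made, so how far this ordering is particular to the 55 genes was not tested.

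**Figure D4:**
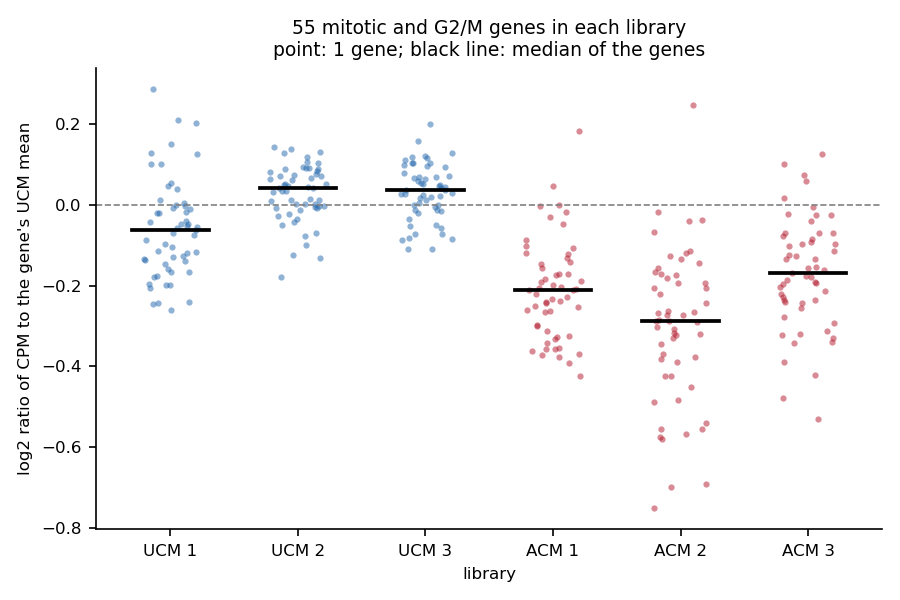
Log2 ratio of each gene's CPM to its mean in UCM (y axis) in each of the 6 libraries (x axis); a point is 1 of the 55 genes and the black line their median. The 3 ACM medians (-0.21, -0.29 and -0.17) lie below the lowest UCM median (-0.06, UCM 1).

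UCM 1 differed from UCM 2 and UCM 3 in a way that followed transcript length. Across the 55 genes, the log2 difference between UCM 1 and the mean of UCM 2 and UCM 3 correlated with the log2 effective length (Pearson 0.699, Spearman 0.647, across genes, which are not independent replicates and share the same libraries), against 0.219 and 0.262 across all genes with a length. MKI67 (0.43), ASPM (0.31) and CENPF (0.30), which have long transcripts, were higher in UCM 1, and CCNA2 (-0.39), MYBL2 (-0.37), CDC25C (-0.35), SPC25 (-0.34) and CCNB2 (-0.31) were lower. The same comparison for ACM 1 gave 0.218 (Pearson) and 0.107 (Spearman) across the 55 genes and -0.0185 and -0.0258 across all genes with a length, with ASPM (0.39) and MKI67 (0.34) again higher. With both libraries numbered 1 left out, an alternative added after the data were seen, 22 of the 55 genes were called lower by edgeR (40.0%, against 5.04% of all genes tested) with a median of -0.25, among them PLK1 (edgeR adjusted p = 0.0016), MKI67 (0.0113) and AURKB (0.0188), while ANLN, called in the full data, was lost (0.117).

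Genes beyond the 55 were read from lists of the same cell cycle. Of 63 other G2/M and mitotic genes, 8 were lower (12.7%, against 2.21% of all genes tested) and 0 higher by edgeR. At an unadjusted p of at most 0.05, 34 were lower (against 11.5% of all genes tested), and 57 had values below 0 (90.5%, against 51.9% of all genes tested), with a median of -0.21. DESeq2 called 13 lower and 0 higher, against 3.08% of all genes it tested lower. Limma-trend on log2(TPM + 1) called only 2 lower, KNSTRN and SPAG5, against 0.837% of all genes tested. In that limma-trend fit 7 of the 8 edgeR calls were lost. FAM83D, which recruits a kinesin to the spindle, fell by 0.46 (SE 0.10, edgeR adjusted p = 0.0290). CENPL and CENPI, subunits of the inner kinetochore, fell by 0.44 (SE 0.11) and 0.33 (SE 0.08). KNSTRN, a kinetochore protein, fell by 0.37 (SE 0.08) and SGO2, which protects centromeric cohesion, by 0.32 (SE 0.08). All 3 ACM values lay below all 3 UCM values for 33 of the 63 (52.4%, against 15.1% of all genes tested).

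Other lists hold genes that act on the same machinery, some of them regulated over the cycle, as UBE2S and FBXO5 are. The 18 APC/C subunits and activators had a median of -0.09 and the 13 cohesin genes one of -0.06. In both lists edgeR called 0 in either direction, with 5 and 2 lower (against 11.5% of all genes tested) and 0 and 1 higher at an unadjusted p of at most 0.05, and DESeq2 called UBE2S lower and no cohesin gene. UBE2S, which extends ubiquitin chains on APC/C targets, had a value of -0.33 (SE 0.09, edgeR adjusted p = 0.0546) and ANAPC15 one of -0.31 (SE 0.12). Among cohesin genes, ESCO1, an acetyltransferase that locks cohesin on chromatin, had a value of 0.35 (SE 0.12) and STAG1 one of -0.21 (SE 0.08), neither of which passed. No test of the difference between lists was made.

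The 46 genes of G1/S and DNA replication centred on -0.11, and limma-trend on log2(TPM + 1) called 0 lower, against 0.837% of all genes tested. EdgeR called 3 of the 46 lower (6.52%, against 2.21% of all genes tested) and none higher. These 3 were GINS2, a subunit of the replicative helicase, which fell by 0.49 (SE 0.09, edgeR adjusted p = 0.0169), RRM2, which makes deoxyribonucleotides and fell by 0.39 (SE 0.10), and the origin licensing factor CDC6, which fell by 0.35 (SE 0.09). CCND1, the cyclin that answers growth signals in G1, had a value of 0.48 (SE 0.13, edgeR adjusted p = 0.0577), from 50.5, 67.5 and 54.0 CPM in ACM and 46.8, 38.1 and 37.9 CPM in UCM. The groups did not overlap, and DESeq2 called CCND1 higher. CCNE2, the cyclin E of late G1, had a value of -0.32 (SE 0.12, edgeR adjusted p = 0.145).

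Inhibitors of the cycle went in both directions. Of 17 CDK inhibitors and p53 arrest genes, 16 were tested, with 2 lower and 1 higher by edgeR, against 2.21% and 3.35% of all genes tested. BTG1, an antiproliferative factor, rose by 0.68 (SE 0.13, edgeR adjusted p = 0.0214), from 25.9, 32.5 and 33.1 CPM in UCM to 43.2, 57.6 and 45.4 CPM in ACM. CDKN2C, which encodes the CDK4 and CDK6 inhibitor p18, fell by 0.63 (SE 0.13, edgeR adjusted p = 0.0344), and CDKN1B, which encodes p27, fell by 0.37 (SE 0.07, edgeR adjusted p = 0.0203). CDKN1A, which encodes the p53 target p21, stood at 11.4, 22.5 and 13.1 CPM in ACM and at 10.00, 9.19 and 8.28 CPM in UCM. All 3 ACM libraries were above UCM, ACM 2 most, but the difference of 0.77 (SE 0.25) did not pass (edgeR adjusted p = 0.113), although DESeq2 called it. DESeq2 also called GADD45B lower, which at -0.68 did not pass by edgeR (adjusted p = 0.0699). CDKN2A, often high in cells without working RB, averaged 608 CPM in both media, with a difference of 0.00047 (95% interval -0.20 to 0.20).

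Of the 18 regulators of the program, the RB family, E2F, DREAM and NF-Y genes, edgeR and DESeq2 called 0 in either direction, and 3 were lower and 1 higher at an unadjusted p of at most 0.05 by edgeR, against 11.5% of all genes tested lower. Their median was -0.05. LIN9, a MuvB subunit, had a value of -0.31 (SE 0.12) and NFYC, a subunit of NF-Y, one of -0.25 (SE 0.09). RB1 stood at 11.1, 12.4 and 11.7 CPM in ACM and at 12.4, 12.4 and 12.6 CPM in UCM, a difference of -0.08 (95% interval -0.34 to 0.18).

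**Figure D5:**
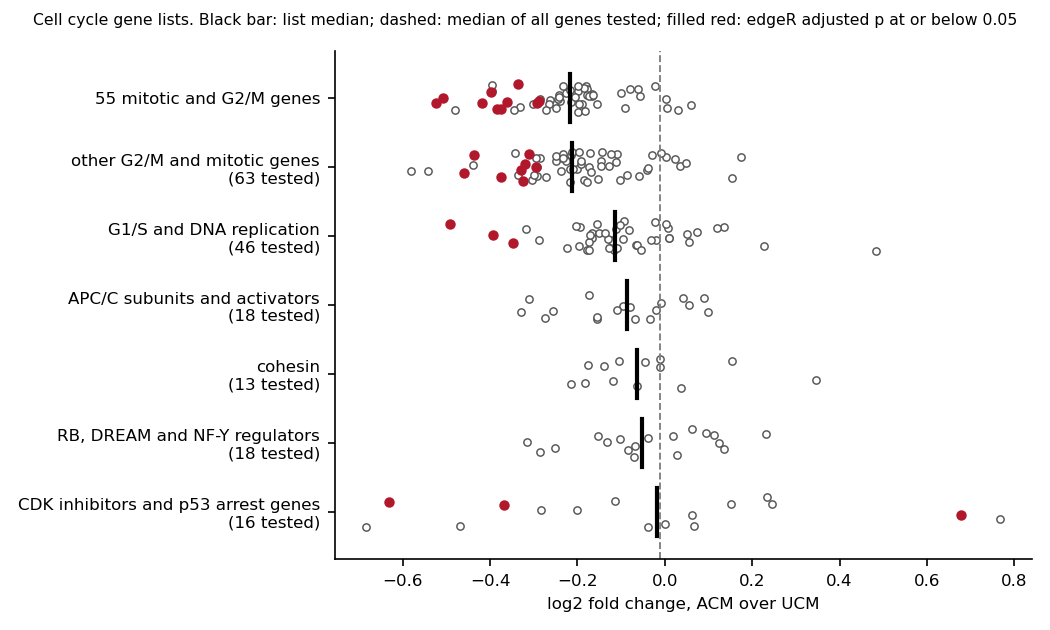
Log2 fold change of each tested gene (x axis, ACM over UCM) by list, with list medians as black bars and the median of all genes tested (-0.01) as a dashed line; filled red marks an edgeR adjusted p of at most 0.05. The 55 genes (-0.22) and the other G2/M genes (-0.21) have the lowest medians, and the CDK inhibitors and p53 arrest genes the widest spread.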

How the data were processed

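Per the labels and the study's methods, paired reads of 6 polyA libraries were trimmed with Trim Galore, aligned with STAR to GRCh38 and quantified with RSEM; versions, annotation and strand setting are not given in the sources used here. The authors deposited expected counts, TPM and effective lengths per gene and library, which were used, and a table of their own fold changes and p-values, which was not. Expected counts were rounded and tested over the whole table with edgeR 4.0.16 in R 4.3.3 (filterByExpr, TMM, robust quasi-likelihood F test, Benjamini-Hochberg), with condition as the only term. Intervals are 95% intervals of that fit, and the code was tested on simulated data. DESeq2 1.42.0, limma 3.58.1, other filters, RLE factors, a replicate block and leaving out each library were alternatives. Library values are printed for members that passed, the 5 highest and 5 lowest fold changes and 14 standard markers; of other lists, genes that passed (at most 5) or the 2 largest are named, with 5 upstream regulators. The members and lists were chosen with earlier results of these data known. Where exons overlap a gene of the opposite strand, as in 16 members (KIF23, HMMR, ANLN and NCAPG among those that passed), reads of the pair may not be told apart, since the strand setting is not given.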

Additional observations from a re-analysis of the deposited data

How the results depend on the processing

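No alternative called any of the 55 genes higher, and the median log2 fold change kept its sign in all 15 alternatives, between -0.19 and -0.26. The count of genes called lower, 10 in the full data, depended on the setting: DESeq2 called 16 (3.08% of all genes tested were lower in that fit, against 2.21% in the main fit), a filter of only 1 count in total 20 (2.66%), and limma-trend on log2(TPM + 1) or log2(TPM + 0.1) 2 each (0.837% and 0.886%). Limma-trend on log2(CPM + 1), added after the data were seen, called 11 (2.42%), and leaving out both libraries numbered 1, also added, called 22 (5.04%). RLE factors and a filter of 10 counts in every library each called 10, the same genes as in the full data. Leaving out each library in turn gave from 0 to 19 called lower, with fewer samples in each fit. The causes of the changes in the number of calls were not tested.

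Deviations of same-numbered libraries from their group means correlated at 0.376, 0.0376 and 0.259 for numbers 1, 2 and 3. Between an ACM and a UCM library of different numbers, the highest such correlation was 0.272. These values do not settle whether the replicate numbers pair the samples. With the number as a replicate block, 18 of the 55 genes were called lower, 9 of them among the 10, and calls over all genes went from 320 (2.21%) to 703 (4.86%). The block ended the CDC20 call (edgeR adjusted p = 0.0783) and left PLK1 uncalled (0.0876), while MKI67 (0.000877), TOP2A (0.0213) and AURKB (0.0493) passed with it.

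Over 25 named genes and 15 alternatives, 19 values changed sign, all of genes near 0. With limma-trend on log2(TPM + 1), ESPL1 was -0.12 and FOXM1 -0.0276, and on log2(TPM + 0.1) -0.13 and -0.0278. Leaving out both libraries numbered 1 gave 0.0037 for KIF15, -0.0123 for FOXM1 and -0.0297 for CENPA. Leaving out each library in turn gave -0.0743 to 0.0257 for KIF15, -0.0859 to 0.0927 for ESPL1, -0.0468 to 0.0495 for FOXM1, -0.0541 to 0.11 for CENPA, -0.0401 to 0.16 for CDC25B and -0.17 to 0.0185 for CENPF. Calls were lost in 55 other cases and gained in 17.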
